A study of Mus musculus with 8 samples.

Results

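The interferon response genes examined here are 40 genes that interferons induce or that carry the interferon signal into the cell. They were chosen by name, and all 40 were measured among the 18193 genes of the array. They were read in mouse LSK cells, a population rich in blood stem and progenitor cells that was sorted for low lineage markers, Sca1 and high cKit. The 8 arrays came from C57BL/6 mice, 4 wild type and 4 heterozygous for Jak2V617F, and are called wild type arrays 1 to 4 and mutant arrays 1 to 4. Jak2V617F is the activated form of the kinase Jak2 that is found in myeloproliferative neoplasms. The sample titles name no treatment, which does not show that none was given. The sources used here do not give the age of the mice or how the mutant allele was switched on. The comparison asks what a mutant Jak2 at a physiological level does to transcription in these cells. Values are log2 intensities, and each difference is mutant minus wild type, so that 1 on this scale is a doubling of the signal.

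Type I interferons bind the receptor of Ifnar1 and Ifnar2 and type II interferon binds that of Ifngr1 and Ifngr2. Both receptors act through Jak kinases, among them Jak2 in the type II receptor, and through Stat transcription factors that enter the nucleus. With Irf9, Stat dimers bind the interferon-stimulated response element (ISRE) near type I target genes, whereas Stat dimers alone bind gamma-activated sequences (GAS). In blood stem cells interferons are known to drive quiescent cells into cycle, and many of the target genes are also expressed at rest.

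Upstream sequence was looked up to show where these elements lie, since many members share them. RefSeq promoter windows (GRCm38.p6) were matched by symbol for 29 of the 40 members. Within the 250 bases before each start, the ISRE was searched as GAAANNGAAA (TTTCNNTTTC on the other strand) and the GAS as TTCNNNGAA, which reads the same on both strands, and overlapping matches were kept. At least 1 ISRE was found for 10 of 29 members, or 34.5%, against 3.46% of 27025 genes. For the GAS the shares were 7 of 29 members, or 24.1%, against 8.13% of all genes. A match is a description of the letters and does not show that a factor binds there. The windows below belong to the members with the smallest p in the comparison of genotypes that had a window. Capitals mark ISRE and GAS matches.
Rsad2 (chr12:26456453-26456702, minus strand): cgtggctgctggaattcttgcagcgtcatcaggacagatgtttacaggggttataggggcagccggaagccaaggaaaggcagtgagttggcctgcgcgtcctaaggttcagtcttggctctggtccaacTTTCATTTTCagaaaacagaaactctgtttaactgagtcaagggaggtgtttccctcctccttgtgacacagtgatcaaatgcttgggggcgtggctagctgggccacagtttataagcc
Igtp (chr11:58199306-58199555, plus strand): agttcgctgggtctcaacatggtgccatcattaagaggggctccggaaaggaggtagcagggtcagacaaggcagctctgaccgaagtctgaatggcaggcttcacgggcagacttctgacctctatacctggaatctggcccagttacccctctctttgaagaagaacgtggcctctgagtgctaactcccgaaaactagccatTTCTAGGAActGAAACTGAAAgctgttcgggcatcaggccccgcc
Bst2 (chr8:71537473-71537722, minus strand): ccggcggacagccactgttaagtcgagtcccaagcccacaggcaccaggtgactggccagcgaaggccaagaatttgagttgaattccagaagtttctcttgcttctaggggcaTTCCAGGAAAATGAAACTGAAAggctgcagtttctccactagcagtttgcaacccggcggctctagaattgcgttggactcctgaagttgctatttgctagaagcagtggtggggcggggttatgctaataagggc
Ifit2 (chr19:34550444-34550693, plus strand): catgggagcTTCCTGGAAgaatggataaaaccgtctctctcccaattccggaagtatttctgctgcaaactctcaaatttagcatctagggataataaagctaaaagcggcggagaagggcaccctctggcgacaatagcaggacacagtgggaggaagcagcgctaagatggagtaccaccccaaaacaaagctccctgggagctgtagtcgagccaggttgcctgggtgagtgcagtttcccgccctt
Irf7 (chr7:141266425-141266674, minus strand): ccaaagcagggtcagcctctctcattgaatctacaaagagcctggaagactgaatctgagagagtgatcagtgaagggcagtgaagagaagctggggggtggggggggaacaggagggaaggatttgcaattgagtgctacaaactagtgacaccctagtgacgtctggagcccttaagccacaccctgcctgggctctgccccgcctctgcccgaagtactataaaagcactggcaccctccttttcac
The Igtp window held a GAS at -45 and an ISRE at -34 from the start, and that of Bst2 held a GAS at -136 with overlapping ISRE matches at -130 and -124. Rsad2 held 1 ISRE at -120, read as TTTCNNTTTC. The Ifit2 window shown held a GAS at -241 and no ISRE, and Irf7 held neither. Members with an ISRE match had a median genotype difference of 0.26 (10 genes, from 0.07 to 0.74). Those without had 0.12 (19 genes, from -0.11 to 0.66), and all 4 receptor genes were among them. For the GAS the medians were 0.27 with a match (7 genes, from 0.07 to 0.35) and 0.14 without (22 genes, from -0.11 to 0.74). These are descriptions with no test.

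No member passed the threshold, and most differences were small and above 0. The difference was above 0 for 35 members, or 87.5%, against 62.6% of all genes, and the median was 0.17 against 0.05 over all genes. With limma and Benjamini-Hochberg adjustment over all genes, 0 members had an adjusted p under 0.05, where 0.165% of all genes did (0.104% higher and 0.0605% lower), and the smallest member value was 0.187. An unadjusted p under 0.05 was found for 8 members, all with a difference above 0, or 20% against 11.9% of all genes. Over both directions the share of all genes was 17.2%, and it was 5.23% for lower ones. Mutant and wild type arrays did not overlap for 2 members, Igtp and Ly6e, both higher in the mutant arrays, or 5% against 10.1% of all genes (6.82% higher and 3.33% lower).

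**Figure D1:**
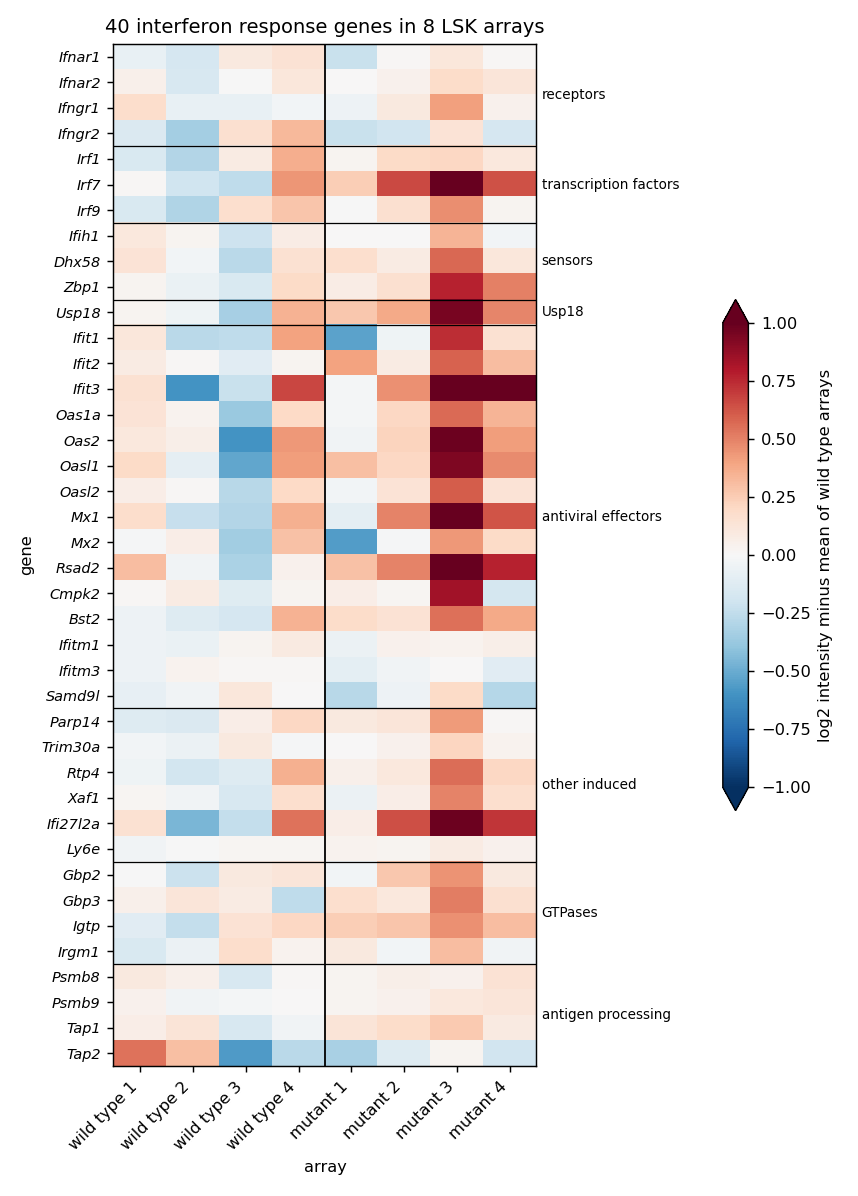
Log2 intensity of each of 40 genes (rows, grouped by role) in each of 8 arrays (columns), minus the mean of the 4 wild type arrays, with colours saturated beyond 1 in either direction. Mutant array 3 is the darkest red column and lies above the wild type mean for all 40 genes.

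Among the mutant arrays, 1 stood apart. This was known from these data before the comparison was set up, so the counts below describe it and do not test it. Mutant array 3 was the highest of the 8 arrays for 32 of 40 members, or 80%, against 16.7% of all genes. Its median deviation from the wild type mean was 0.46, where mutant arrays 1, 2 and 4 had 0.02, 0.10 and 0.13. Wild type arrays 1 to 4 had medians of 0.03, -0.06, -0.14 and 0.16, so mutant arrays 1, 2 and 4 lay within the range of the wild type arrays. The median over all genes was between -0.03 and 0.06 in every array. Without mutant array 3 the median member difference was 0.08 against 0.05 over all genes, 31 members lay above 0, or 77.5% against 61.5% of all genes. An unadjusted p under 0.05 was then found for 5 members, or 12.5% against 16.4%, and 2 had arrays that did not overlap, or 5% against 16.5%. The difference turned sign for 4 members (Ifih1, Ifit1, Mx2 and Cmpk2) and became smaller by over 1.5 times for 16 others.

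The arrays also differ in the sex of the mice, as read from Xist and Y-linked genes. Wild type arrays 1 and 2 and mutant array 3 read as female and the other 5 arrays as male. Among male arrays alone (2 wild type, 3 mutant) the median member difference was 0.08 against 0.06 over all genes, with 28 members above 0, or 70% against 61.2%. Among female arrays (2 wild type, 1 mutant) it was 0.51 against 0.05 over all genes, with 38 members above 0, where 59.1% of all genes were. Mutant array 3 is the only mutant array there, so sex and this array cannot be told apart within the mutant group. The wild type female arrays had median deviations of 0.03 and -0.06, from a mean that they help to set. The part of sex in the member values was not tested.

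**Figure D2:**
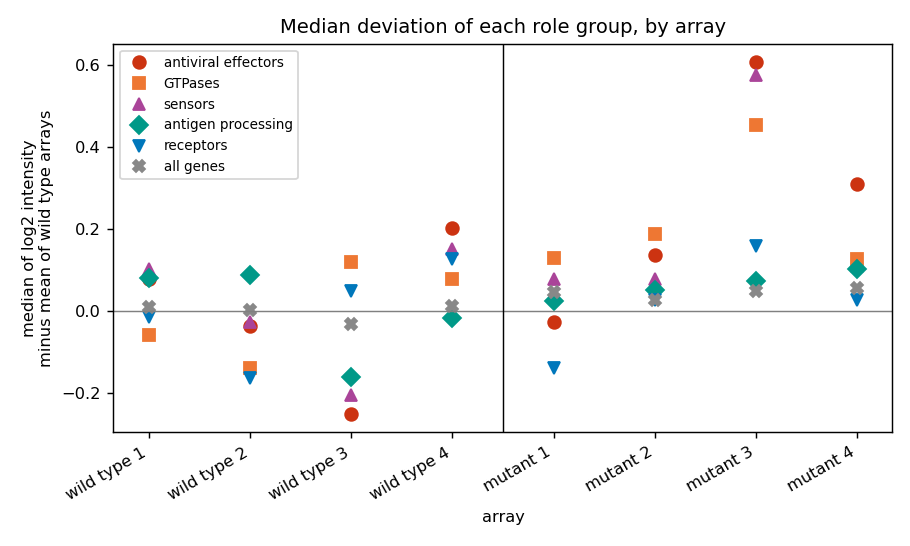
Median deviation from the wild type mean (vertical axis, log2) of 5 role groups and of all genes, for each array (horizontal axis). In mutant array 3 the antiviral effectors reach 0.61, the sensors 0.58 and the GTPases 0.45, while antigen processing genes are at 0.07 and all genes at 0.05.

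The progenitor identity of the cells could be read from Kit (12.65 in wild type and 12.67 in mutant arrays), Flt3 (13.46 and 13.40) and Cd34 (14.04 and 13.93). Of 10 measured LSK markers of 12 listed, 4 were above 0, with a median of -0.07. None was called by limma, but 3 had an unadjusted p under 0.05, namely Cd48 (0.35), Mecom (-0.34) and Slamf1 (0.72). The arrays did not overlap for Cd48, Mecom and Cd34, or 30% of the markers against 10.1% of all genes. The part of these shifts in the interferon values was not tested. Every member read above 5.37 in all arrays, the highest reading of Y-linked Eif2s3y in female arrays, which serves as a rough level of absent transcript, since background differs between probe sets. The lowest member reading was 6.75. In RNA of sorted cells, a change in the number of cells of a type and a change in RNA per cell cannot be told apart. The labels describe separate mice, and 4 arrays a group limits the precision of every value.

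Receptor genes did not pass the threshold, and their groups overlapped over all arrays. Ifnar1, a chain of the type I receptor, read 11.27, 11.18, 11.45 and 11.49 in wild type arrays 1 to 4 and 11.12, 11.36, 11.46 and 11.36 in mutant arrays 1 to 4. Ifnar2, its partner chain, read 12.08, 11.87, 12.02 and 12.14 against 12.04, 12.07, 12.21 and 12.15. The groups overlapped for both, with differences of -0.02 ± 0.10 and 0.09 ± 0.080 (SE). For the type II receptor, the ligand-binding chain Ifngr1 read 10.80, 10.55, 10.55 and 10.60 in wild type and 10.57, 10.72, 11.03 and 10.67 in mutant arrays. Ifngr2, the chain that carries Jak2, read 9.24, 9.04, 9.54 and 9.70 against 9.15, 9.18, 9.52 and 9.21. Their differences were 0.12 ± 0.11 and -0.11 ± 0.15 (SE), and mutant array 3 was the highest mutant array for all 4 receptor genes. Among male arrays alone Ifngr2 was at -0.43 (limma adjusted p = 0.161), and the male mutant arrays all lay below the male wild type arrays. The limma adjusted p of the receptors over all arrays lay between 0.563 and 0.922.

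Among the interferon regulatory factors, Irf7 stood apart from Irf1 and Irf9 in the size of its difference. Irf7, the factor that amplifies type I interferon production, read 9.93, 9.72, 9.67 and 10.36 in wild type and 10.16, 10.58, 11.03 and 10.56 in mutant arrays. The groups overlapped through wild type array 4 and mutant array 1. The means were 9.92 ± 0.31 and 10.58 ± 0.35 (SD, n = 4 each), a difference of 0.66 ± 0.20 (SE) or 1.58-fold, with a limma adjusted p of 0.187. It was 0.51 without mutant array 3 and 0.42 among male arrays. Irf1, an early target of type II interferon, read 12.39, 12.24, 12.62 and 12.90 against 12.57, 12.73, 12.74 and 12.64, a difference of 0.13 ± 0.14 (SE). Irf9, the DNA-binding part of the type I complex, read 11.33, 11.17, 11.65 and 11.76 against 11.48, 11.64, 11.94 and 11.50, a difference of 0.16 ± 0.15 (SE). Both turned below 0 among male arrays, to -0.11 for Irf1 and -0.16 for Irf9, and male wild type arrays 3 and 4 held the higher wild type readings of both. Whether the difference of Irf7 exceeded that of the other factors was not tested.

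Of the nucleic acid sensors, Zbp1 had the largest difference. Zbp1, which binds left-handed nucleic acid and can start necroptosis, read 9.54, 9.45, 9.37 and 9.70 in wild type and 9.59, 9.68, 10.29 and 10.02 in mutant arrays. Mutant arrays 3 and 4 lay above all wild type arrays, and mutant arrays 1 and 2 among them. The difference was 0.38 ± 0.15 (SE; limma adjusted p = 0.262), and 0.25 without mutant array 3. The RNA sensors Dhx58 and Ifih1 differed by 0.23 and 0.08, and by 0.12 and -0.01 without mutant array 3. Usp18, which removes a ubiquitin-like modifier from proteins and holds back signalling at the type I receptor, read 10.57, 10.50, 10.21 and 10.89 in wild type and 10.81, 10.92, 11.49 and 11.03 in mutant arrays. Only wild type array 4 reached the range of the mutant arrays. The means were 10.54 ± 0.28 and 11.06 ± 0.30 (SD, n = 4 each), and the difference of 0.52 ± 0.18 (SE), or 1.43-fold, had a limma adjusted p of 0.213.

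The 15 antiviral effectors included 13 with a difference above 0, with a median of 0.27, which was 0.18 without mutant array 3 and 0.15 among male arrays. Rsad2 (viperin), an enzyme that makes a chain-terminating nucleotide, had the largest difference of all members. It read 11.38, 11.03, 10.76 and 11.12 in wild type and 11.37, 11.57, 12.49 and 11.84 in mutant arrays. Wild type array 1 alone reached the range of the mutant arrays, and mutant array 3 stood above the rest. The means were 11.07 ± 0.26 and 11.82 ± 0.49 (SD, n = 4 each), and the difference was 0.74 ± 0.23 (SE) or 1.68-fold, with a limma adjusted p of 0.194. It was 0.52 without mutant array 3 and 0.65 among male arrays. The 2 other probe sets of Rsad2 read higher in every mutant array than in any wild type array, by 0.87 and 0.90 (limma adjusted p = 0.132 and 0.153 over all probe sets).

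The Ifit genes, whose proteins bind foreign RNA, differed among themselves. Ifit2 read 10.86, 10.79, 10.66 and 10.80 in wild type and 11.18, 10.86, 11.37 and 11.09 in mutant arrays. The wild type arrays were tight (SD 0.083), and mutant array 2 lay at their upper edge. The difference was 0.35 ± 0.11 (SE), or 1.27-fold, with a limma adjusted p of 0.194. Ifit3 read 9.07, 8.32, 8.69 and 9.58 against 8.90, 9.38, 10.32 and 9.995, a difference of 0.73 ± 0.34 (SE; limma adjusted p = 0.315). Its readings spread widely in both groups, and it was 0.28 among male arrays. Ifit1 differed by 0.08 ± 0.26 (SE), being lowest of all in mutant array 1 (9.44) and highest in mutant array 3 (10.71), and by -0.14 without mutant array 3. The start sites of the 3 genes lie 5.39, 5.30 and 5.33 Mb from that of Jak2 (Ifit1, Ifit2 and Ifit3) on chromosome 19 in GRCm38.p6. Whether their position near the altered gene bears on these values was not tested.

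**Figure D3:**
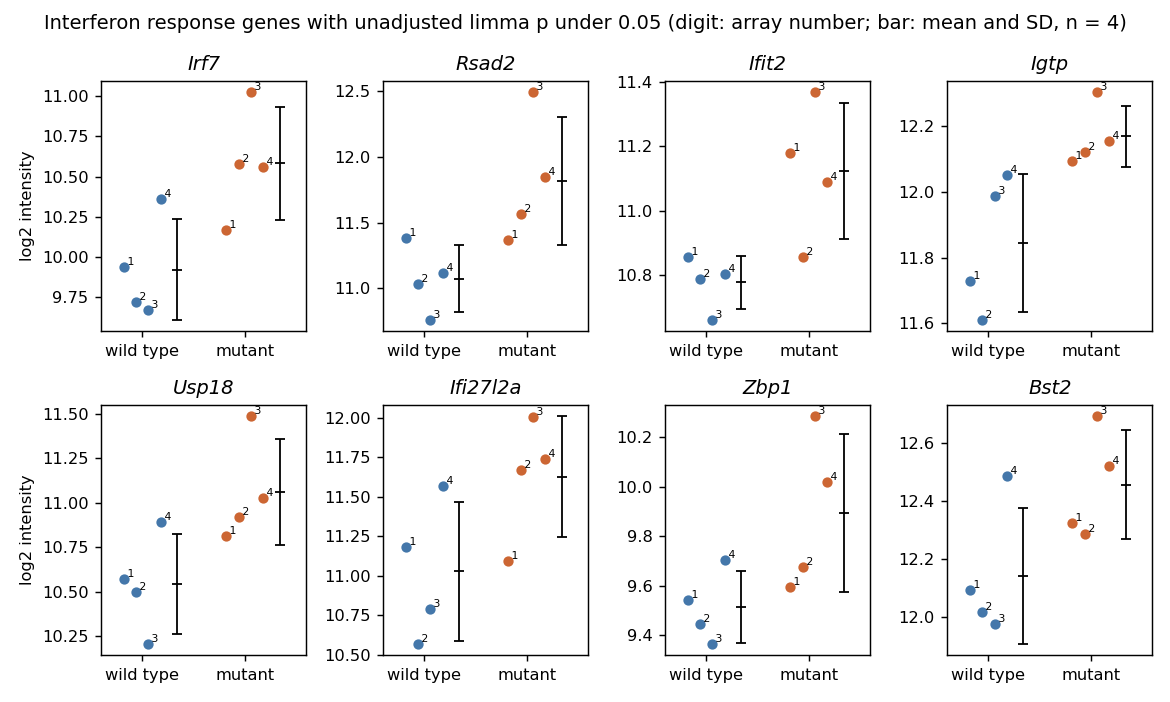
Log2 intensity (vertical axis) of the 8 genes with an unadjusted limma p under 0.05 in wild type and mutant arrays, with each array's number and the mean and SD (n = 4). Mutant array 3 is the highest array in every panel, and Igtp is the only one of the 8 whose groups do not overlap.

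Mx1 encodes a GTPase that blocks viral polymerases and is defective in most inbred mouse strains, C57BL/6 among them. It read 9.85, 9.45, 9.38 and 10.03 in wild type and 9.58, 10.18, 10.79 and 10.31 in mutant arrays. Mutant arrays 2, 3 and 4 lay above all wild type arrays and mutant array 1 among them, with a difference of 0.53 ± 0.25 (SE; limma adjusted p = 0.307). It was 0.34 without mutant array 3 and 0.31 among male arrays. Its relative Mx2 differed by 0.01 ± 0.21 (SE). Bst2 (tetherin), which holds budding virus at the cell surface, read 12.09, 12.02, 11.97 and 12.49 against 12.32, 12.29, 12.69 and 12.52. Wild type array 4 lay among the mutant arrays, and the difference was 0.31 ± 0.14 (SE; limma adjusted p = 0.282), or 0.15 among male arrays. Some enzymes of the oligoadenylate synthetase family activate an RNA-cutting nuclease. The 4 genes of this family among the members differed by 0.27 (Oas1a), 0.40 (Oas2), 0.48 (Oasl1) and 0.22 (Oasl2). Without mutant array 3 these were 0.18, 0.20, 0.33 and 0.084. Wild type array 3 was the lowest of the 8 arrays and mutant array 3 the highest for each of these 4.

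Cmpk2, a mitochondrial nucleotide kinase, lies 12.8 kb from Rsad2 on chromosome 12, start to start in GRCm38.p6. Its chosen probe set read 9.38, 9.45, 9.25 and 9.40 in wild type and 9.44, 9.39, 10.21 and 9.19 in mutant arrays, so that only mutant array 3 stood out. A further probe set read 8.72, 8.43, 8.44 and 8.84 against 9.33, 9.30, 9.80 and 9.30. All mutant arrays lay above all wild type arrays there, by 0.82 ± 0.14 (SE), and its limma adjusted p of 0.0557 over all probe sets did not pass the threshold. The probe sets of Cmpk2 differed in size, at 0.19 and 0.82. Membrane proteins that block viral entry were at -0.06 (Ifitm3) and 0.02 (Ifitm1), and Samd9l, a restriction factor that limits growth of blood progenitors, was at -0.11.

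Of the other 6 induced genes, Ifi27l2a differed most. It encodes a small hydrophobic protein and read 11.18, 10.57, 10.79 and 11.57 in wild type and 11.09, 11.67, 12.01 and 11.74 in mutant arrays. Mutant arrays 2, 3 and 4 lay above all wild type arrays, while mutant array 1 lay among them. The difference was 0.60 ± 0.24 (SE) or 1.52-fold, with a limma adjusted p of 0.262, and was 0.32 among male arrays. Rtp4 was at 0.23, Xaf1 at 0.17, the ADP-ribosyltransferase gene Parp14 at 0.16 and Trim30a at 0.07. A further Trim30a probe set was at -0.54. Ly6e, a surface protein anchored in the membrane by lipid, had arrays that did not overlap, but its difference was 0.05 ± 0.058 (SE; limma adjusted p = 0.676).

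**Figure D4:**
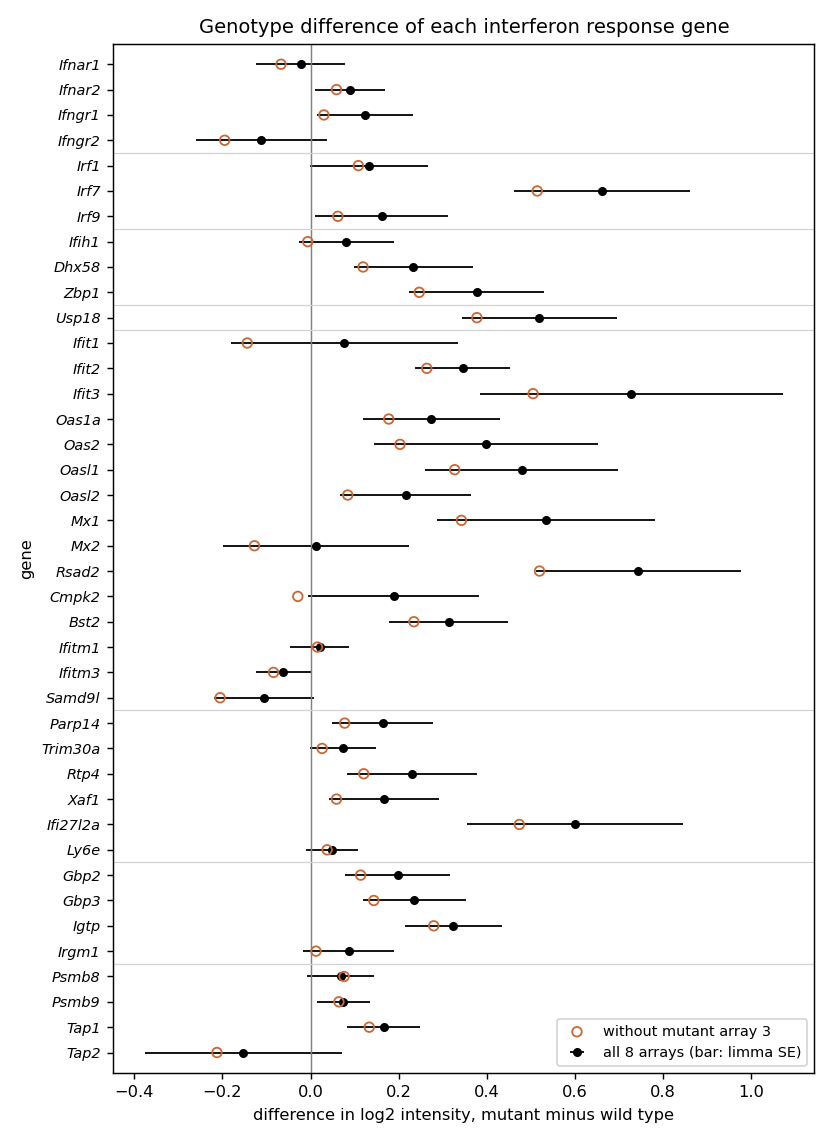
Difference in log2 intensity between mutant and wild type arrays (horizontal axis, filled points with limma SE) for each of 40 genes, and the same without mutant array 3 (open circles). The largest differences are those of Rsad2 (0.74), Ifit3 (0.73) and Irf7 (0.66), and leaving out mutant array 3 moves them to 0.52, 0.51 and 0.51.

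The GTPase members, which attack vacuoles that hold intracellular microbes, were all above 0 over the 8 arrays, though Irgm1 was not among male arrays. Igtp (Irgm3), a regulator within the immunity-related GTPase family, read 11.73, 11.61, 11.99 and 12.05 in wild type and 12.10, 12.12, 12.30 and 12.16 in mutant arrays. All mutant arrays lay above all wild type arrays, though the male wild type arrays 3 and 4 came close. The means were 11.85 ± 0.21 and 12.17 ± 0.093 (SD, n = 4 each), and the difference was 0.32 ± 0.11 (SE) or 1.25-fold, with a limma adjusted p of 0.211. It was 0.28 without mutant array 3 and 0.10 among male arrays. The guanylate binding protein genes Gbp2 and Gbp3 differed by 0.20 and 0.24, and Irgm1 by 0.09. Without mutant array 3 these were 0.11, 0.14 and 0.012, and among male arrays 0.0038, 0.23 and -0.091.

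Beyond these 4, a list of further GTPases of the same families held 24 names, of which 10 were measured. Of the 10, 6 were above 0 and 4 below, or 60% above against 62.6% of all genes. Arrays did not overlap for 5, 4 higher and 1 lower, or 50% against 10.1% of all genes. Gm4951, a gene listed with the immunity-related GTPases, rose from 9.29 ± 0.22 to 10.88 ± 0.35 (SD, n = 4 each), by 1.59 ± 0.18 (SE; limma adjusted p = 0.0131). Gm12185, of the same list, rose by 0.66 ± 0.096 (SE; limma adjusted p = 0.0491). No other gene of the interferon lists was called. Without mutant array 3 the differences were 1.41 and 0.61, and among male arrays 1.29 and 0.53. With single arrays left out, Gm4951 lost its call without wild type array 2 (limma adjusted p = 0.0506), while Gm12185 lost it whichever of the 8 arrays was left out (limma adjusted p from 0.0657 to 0.104), among male arrays (0.128), with sex as a covariate (0.0552) and with the trended robust prior (0.0504). Iigp1, an effector of the family, was at 0.79 ± 0.20 (SE; limma adjusted p = 0.137) and Ifi47 at 0.24 ± 0.071 (SE; limma adjusted p = 0.186), both with arrays that did not overlap. These values stand beside 0.32 for Igtp and 0.09 for Irgm1. Gbp6 and Gbp8, chosen after their values were seen, had differences below 0. Gbp6 read 12.45, 12.14, 9.65 and 9.44 in wild type and 9.29, 9.63, 10.10 and 9.42 in mutant arrays. Wild type arrays 1 and 2 were high and all the others low, so that its difference of -1.31 was -0.10 among male arrays. Gbp8 was lower in every mutant array than in any wild type array, at -1.22 ± 0.38 (SE; limma adjusted p = 0.192), and at -0.54 among male arrays. It too was highest in wild type arrays 1 and 2.

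**Figure D5:**
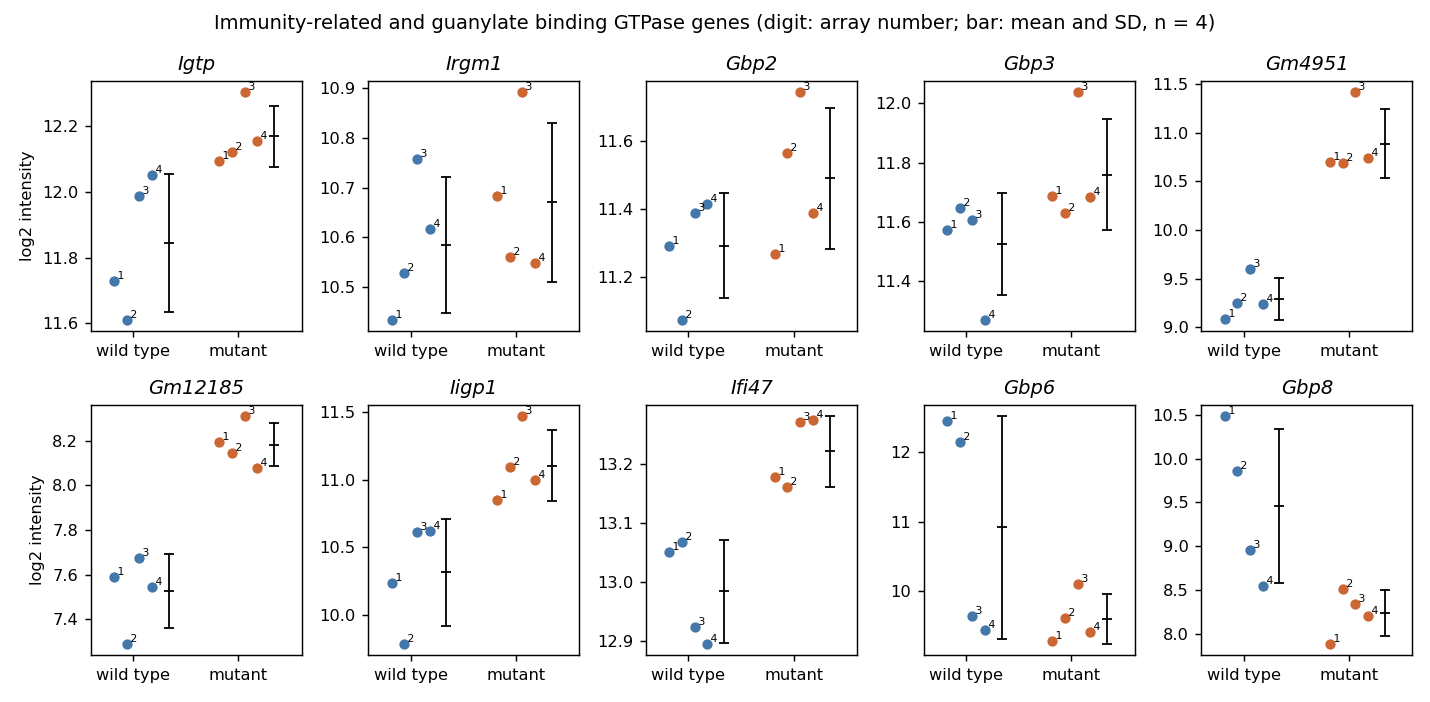
Log2 intensity (vertical axis) of 10 GTPase genes in wild type and mutant arrays, with each array's number and the mean and SD (n = 4). The arrays of Igtp, Gm4951, Gm12185, Iigp1 and Ifi47 are all higher in mutants and those of Gbp8 all lower, while Gbp6 is at 12.45 and 12.14 in wild type arrays 1 and 2 and at most 10.10 elsewhere.

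Antigen processing members differed little. The immunoproteasome subunits Psmb8 and Psmb9 were at 0.07 each, and the peptide transporter chains Tap1 and Tap2 at 0.17 ± 0.083 and -0.15 ± 0.22 (SE), with limma adjusted p of 0.337 and 0.739. Tap2 read 13.10 and 12.85 in wild type arrays 1 and 2, 11.99 and 12.28 in wild type arrays 3 and 4, and 12.23 to 12.58 in the mutant arrays. The mutant arrays of Tap2 all lay inside the range of the wild type arrays. The start sites of Tap1 and Psmb9 face away from each other on chromosome 17, and their upstream windows share 225 bases in GRCm38.p6 with no ISRE or GAS match by the letters searched. Mutant array 3 did not stand out for these genes, being the highest of the 8 arrays for 1 of the 4. Of 22 measured genes of class I presentation and type II induction, 16 were above 0, with a median of 0.09 and 0 called by limma, and 5 had an unadjusted p under 0.05 and lay higher, or 22.7% against 11.9% of all genes. Ifi30, a thiol reductase of lysosomes, was at 0.60 (limma adjusted p = 0.0997), Ciita, the regulator of class II genes, at 0.60 (limma adjusted p = 0.115), Cxcl9 at 0.65 and Tapbpl at 0.34.

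Other probe sets were at hand for 15 of the 40 members. Of 20 such probe sets 4 read at or below the level of absent transcript, and 13 of the 16 others had the same sign of difference as the chosen one. Zbp1 had a further probe set at 0.72 and Tap1 at 0.27. For Ifngr2 the other probe set was at 0.27 against -0.11 for the chosen one, so its direction is not settled.

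Among further signalling, ligand and type I response genes, none was called by limma. Of 15 measured signalling genes 12 were above 0, with a median of 0.06, none called by limma and 1 with an unadjusted p under 0.05. This was Ptpn2, a phosphatase that removes phosphate from Jak and Stat proteins, at 0.26 ± 0.059 (SE; limma adjusted p = 0.115), with all mutant arrays between 12.63 and 12.70 and all wild type arrays between 12.38 and 12.44. Jak2 was at -0.20, Irf8 at 0.55 and Socs1 at 0.17, each with overlapping arrays. Without mutant array 3 Jak2 was at -0.27 (limma adjusted p = 0.208), and the remaining mutant arrays all lay below the wild type arrays. Stat2, a partner of Irf9, was at 0.01 ± 0.13 (SE). Of 10 measured interferon ligand genes, 7 read at or below the level of absent transcript. Ifna1, whose probe set can also bind relatives, read 5.78 to 6.15 in wild type and 6.16 to 6.59 in mutant arrays (limma adjusted p = 0.194). Ifnz, the brightest ligand gene, had means of 9.25 in wild type and 8.98 in mutant arrays. Its difference was -0.27 (limma adjusted p = 0.421), and that of Ifna5 was -0.009. Of 75 further genes of the type I response, 56 were above 0, or 74.7% against 62.6% of all genes, with a median of 0.08. An unadjusted p under 0.05 was found for 16 higher, or 21.3% against 11.9%, and for 1 lower, against 5.23%. Arrays did not overlap for 10, all higher, or 13.3% against 6.82%. Without mutant array 3 the median was 0.03 against 0.05 over all genes, and 60% were above 0 against 61.5%. Over all arrays none of the 75 was called by limma, and Slfn1 (0.89), Ms4a4c (1.17), Ms4a6b (0.71) and Slfn4 (1.52) had the smallest p. Slfn4 was low in mutant array 3 (7.88) and between 9.14 and 10.15 in the other mutant arrays, against 6.96 to 8.02 in wild type, so that the array highest for most members was the lowest mutant array there.

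Markers of other cells differed between the groups as well, with none called by limma. An unadjusted limma p under 0.05 held for 52.9% of macrophage and dendritic cell, 62.5% of erythroid and 44.4% of T and NK cell markers. The shares were 11.1% of plasmacytoid dendritic cell, 11.1% of granulocyte and monocyte and 14.3% of B cell markers, against 17.2% of all genes. Without mutant array 3 they were 47.1% for macrophage and dendritic cell, 37.5% for erythroid and 11.1% for T and NK cell markers. They were then 11.1% for plasmacytoid dendritic cell, 55.6% for granulocyte and monocyte and 0% for B cell markers, against 16.4% of all genes. All 17 macrophage and dendritic cell markers were above 0, where 62.6% of all genes were, with a median of 0.61. Their summed intensity was 15951 to 25115 in wild type and 27068 to 37396 in mutant arrays, with mutant array 3 at 32130. The 9 plasmacytoid dendritic cell markers had a median of 0.06 and summed to between 16022 and 18589 in wild type and between 15308 and 19193 in mutant arrays, where mutant array 3 was the highest. Of 9 T and NK cell markers 8 were above 0 (median 0.25), with sums from 10696 to 12700 and from 11579 to 13484, the highest again in mutant array 3. B cell markers had a median of 0.002 over 7 genes, with sums from 7833 to 9852 and from 8021 to 11488. Granulocyte and monocyte markers (median 0.43 over 9 genes) summed to between 73744 and 98713 in wild type and between 95391 and 115960 in mutant arrays, where mutant array 3 was the lowest. Erythroid markers (median 0.59 over 8 genes) summed to between 7544 and 15365 and between 9511 and 22025, with mutant array 3 at 20383. Mertk was the only 1 of the 17 macrophage and dendritic cell markers at or below the level of absent transcript, Ncr1 the only 1 of the 9 T and NK cell markers and Ms4a1 the only 1 of the 7 B cell markers. The part of these cells in the interferon values was not tested.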

How the data were processed

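LSK cell RNA was amplified linearly (NuGEN Ovation), biotinylated and hybridised to Affymetrix mouse expression arrays, per the labels' protocols. The deposited log2 intensities come from RMA as run by the authors in R 2.11.0 with affy, according to the submitters' processing notes. Because RMA quantile normalises, a shift of most transcripts would be hidden. Neither chip definition nor build is given in the sources used here.

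Of 45101 probe sets, 64 were controls, and the platform annotation gave 34945 a single symbol, 932 several and 9160 none. For each of 18193 genes the probe set of highest mean was kept. Genotypes were compared with limma 3.58.1 in R 4.3.3 (lmFit, eBayes; two-sided, no covariates), p-values were adjusted over all genes by Benjamini-Hochberg, and 0.05 was the threshold. Scripts were tested on simulated data. Array values are given for members with unadjusted p under 0.05, the 6 largest differences, receptors and regulatory factors, and for Cmpk2, chosen after its values were seen. Of each pathway list, called genes and up to 4 of smallest p are named, together with Stat2 and Ifna5. Genes with no probe set of their own name are left out. Members and lists were chosen with earlier results of these data known. Alternatives tried were a replicate block, median centring, a filter on dim genes (mean above 7.11), other choices of probe set, a trended robust prior, array weights, sex and leaving out each array.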

Additional observations from a re-analysis of the deposited data

Results flagged for a closer look

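In 3 of the 80 sets of 4 arrays (40 members in each genotype), 1 array lay far from the other 3 by Dixon's ratio. Chance alone would mark about 1 in 20 such sets. All 3 concern mutant array 3. Ifih1 read 11.18 there and 10.81 to 10.83 in the other mutant arrays. Gbp3 read 12.04 there and at most 11.69 in the others. Ifngr2 read 9.52 there and at most 9.21 in the others.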

How the results depend on the processing

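No member was called by limma under any of the 18 alternatives, though only 29 of the 40 had a value without shared probe sets. The limma adjusted p of the members, each by 1 value per gene, went no lower than 0.0837 (Rsad2). Deviations of same-numbered arrays had correlations of -0.02, -0.22, -0.06 and 0.10 between genotypes over genes. Those of differently numbered arrays ran from -0.17 to 0.16. The sample titles state no pairing, and such correlations cannot exclude one. With the replicate block 9 of 40 members had an unadjusted p under 0.05, against 15.9% of all genes, and 0 were called. That count, 8 in the comparison as given, was 13 with sex as a covariate, against 17.9% of all genes. Among male arrays it was 2, against 17.5%, with Rsad2 higher (0.65) and Ifngr2 lower (-0.43). With single arrays left out the lowest count was 5, without wild type array 3, mutant array 3 or mutant array 4. The shares of all genes for these were 12.2%, 16.4% and 12.0%, in that order. The highest count was 13 without wild type array 4, against 16.1%. Members with arrays that do not overlap, 2 of 40, were 6 with median centring, 5 with probe sets averaged and 13 among male arrays. Without shared probe sets there was 1 among 29 members. The shares of all genes were 11.9%, 10.4% and 38.6% in the first of these settings, and 10.04% without shared probe sets. With single arrays left out they ran from 2 to 8, being 8 without wild type array 4 or mutant array 1, 6 when wild type array 1 was dropped, and 4 when wild type array 2 or mutant array 2 was, against 12.0% to 16.7% of all genes. The median member difference stayed above 0, from 0.08 (male arrays, or without mutant array 3) to 0.24 (without mutant array 1). Of the 40 members, 13 turned sign under at least 1 alternative, 9 of them among male arrays. Among the genes given by the rule for array values, signs turned for Ifnar1 (0.021 with median centring, and from -0.079 to 0.044 with single arrays left out), Ifngr2 (0.077 with probe sets averaged), and Irf1 (-0.11) and Irf9 (-0.16) among male arrays. The other members that turned there were Ifit1 (-0.22), Mx2 (-0.10), Irgm1 (-0.091), Parp14 (-0.059), Ifitm1 (-0.041), Trim30a (-0.018) and Tap2 (0.21). The cause was not tested. Among the further GTPases, the replicate block also ended the call of Gm12185 (limma adjusted p = 0.113) and kept that of Gm4951 (0.0298). With 4 arrays a group, small differences in members cannot be resolved.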
